A study of Mus musculus with 24 samples.

Results

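Microtubules are hollow polymers of alpha and beta tubulin, and mammals make each subunit from several genes whose products are called isotypes. The 10 isotype genes described here were picked by symbol, with earlier results of these data known. The set was thus not chosen blind to the data. The isotypes are the alpha tubulins Tuba1a, Tuba1b and Tuba1c and the beta tubulins Tubb2a, Tubb2b, Tubb3, Tubb4a, Tubb4b, Tubb5 and Tubb6. They are 10 of the 54532 genes in the table of expected read counts, and all 10 were among the 16935 genes that passed the filter on low counts.

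The libraries are whole-lung RNA-seq from young male C57BL6/j mice. Each of the 4 groups held 6 libraries: normoxia with vehicle (the control), normoxia with ABT-263 at 50 mg/kg/day, hypoxia with vehicle, and hypoxia with the same dose of ABT-263, all for 2 days. ABT-263 (navitoclax) inhibits the anti-apoptotic proteins BCL-2, BCL-XL and BCL-W and is used as a senolytic, a drug meant to remove senescent cells. The labels give neither the oxygen level, the age, the route of dosing nor which animal gave which library, so the p-values measure the spread between libraries, which may be partly technical. Library totals ran from 12643483 to 17295216 counts after rounding, and levels are given as CPM, counts scaled to a common library size, here after TMM scaling. Genes of lung epithelium marked every library as lung: surfactant protein C (Sftpc) alone averaged 26140 ± 3077 CPM (SD, n = 6) in the control.

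The isotypes share most of their sequence and differ mainly at their C-terminal tails, and tissues use them in different mixtures. Tuba1a, Tubb2a, Tubb2b and Tubb3 are abundant in neurons, Tuba1b, Tuba1c and Tubb5 are made in most dividing cells, Tubb4a is a brain isotype, Tubb4b is broadly made and abundant in ciliated cells, and Tubb6 is a divergent, broadly made isotype. Cells adjust tubulin mRNA to the pool of unpolymerised tubulin: TTC5 binds the first residues of a nascent tubulin chain on the ribosome and, through SCAPER and the CCR4-NOT complex, triggers decay of that mRNA. Newly made tubulin is folded by prefoldin, the CCT chaperonin and the tubulin folding cofactors before it can polymerise.

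The start of the coding sequence is shown for 9 of the isotypes because it encodes the residues that this autoregulation reads. Each line gives the first 24 coding bases, 5′ to 3′ on the coding strand, from the GRCm38 genome and GENCODE vM21, with the first 12 in capitals.
Tuba1a: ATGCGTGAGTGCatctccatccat
Tuba1b: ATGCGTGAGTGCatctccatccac
Tuba1c: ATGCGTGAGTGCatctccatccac
Tubb2a: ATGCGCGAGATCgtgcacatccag
Tubb2b: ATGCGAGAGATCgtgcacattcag
Tubb3: ATGAGGGAGATCgtgcacatccag
Tubb4a: ATGCGGGAAATCgtgcacctgcaa
Tubb4b: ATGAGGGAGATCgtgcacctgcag
Tubb5: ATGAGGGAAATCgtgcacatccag
The 3 alpha genes shared 1 run of capitals, and the 6 beta genes shown had 5 different runs, with Tubb3 and Tubb4b alike. Translated, the 12 bases gave 1 run of residues for all alpha genes and 1 for all beta genes shown, so the runs of capitals differ within the beta family only in synonymous bases.

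All 10 genes have 4 exons in their longest annotated transcript. The alpha genes lie close together on chromosome 15 (GRCm38), Tuba1b at chr15:98931425-98934565, Tuba1a at chr15:98949837-98953703 and Tuba1c at chr15:99029891-99038110. Tubb2a at chr13:34074274-34078007 and Tubb2b at chr13:34126748-34130466 are also neighbours. Tubb3 lies at chr8:123411424-123422015, Tubb4a at chr17:57080066-57087782, Tubb5 at chr17:35833921-35838306, Tubb4b at chr2:25222160-25224702 and Tubb6 at chr18:67390717-67402749.

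Several isotypes are near copies, which limits how far their counts can be told apart. Coding sequences of Tuba1b and Tuba1c were identical at 98.4% of aligned bases, with an unbroken identical stretch of 468 bases. Tuba1a matched Tuba1b at 98.3% and Tuba1c at 97.6%, and Tubb2a matched Tubb2b at 96.5% with a stretch of 551 bases. All other beta pairs matched at 80.8% to 86.4%, with no identical stretch above 53 bases. Values of Tuba1a, Tuba1b, Tuba1c, Tubb2a and Tubb2b are therefore uncertain as single genes, and their sums are given beside them. Tubb4b also shares 121 exonic bases with Fam166a on the opposite strand, a gene with 726 counts in all 24 libraries against 129001 for Tubb4b. Tuba1b shares 87 with Gm41396, which had 78 counts. Tubb3 lies inside the gene model Gm20388 but shares 0 exonic bases with it.

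Some libraries stood apart on all isotypes together. Among the 6 libraries of hypoxia with vehicle, replicates 1 and 5 lay below their group mean for all 10 isotypes, by a median of 0.26 and 0.25 log2 units. Replicate 2 of hypoxia with ABT-263 was also below for all 10, by a median of 0.38, and it was the lowest of its group for 9. Replicate 6 of that group lay above its mean for all 10 isotypes, with a median deviation of 0.35, and so did replicate 4 of normoxia with ABT-263, with 0.19. These libraries lay far out on the leading component of the differences within groups over all genes, which held 26.6% of that variance. The scores were -27.5 and -39.6 for the low pair under vehicle, -35.7 for the low library under ABT-263, and 30.9 and 30.4 for the high pair. As far out lay replicate 3 of hypoxia with vehicle (31.4) and replicate 1 of hypoxia with ABT-263 (30.7), which were above their group means for 9 and 8 of the 10 isotypes. The share of counts in protein-coding genes was 97.62% in the library with the lowest score and 98.58% in that with the highest, and its part in the component was not tested.

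**Figure D1:**
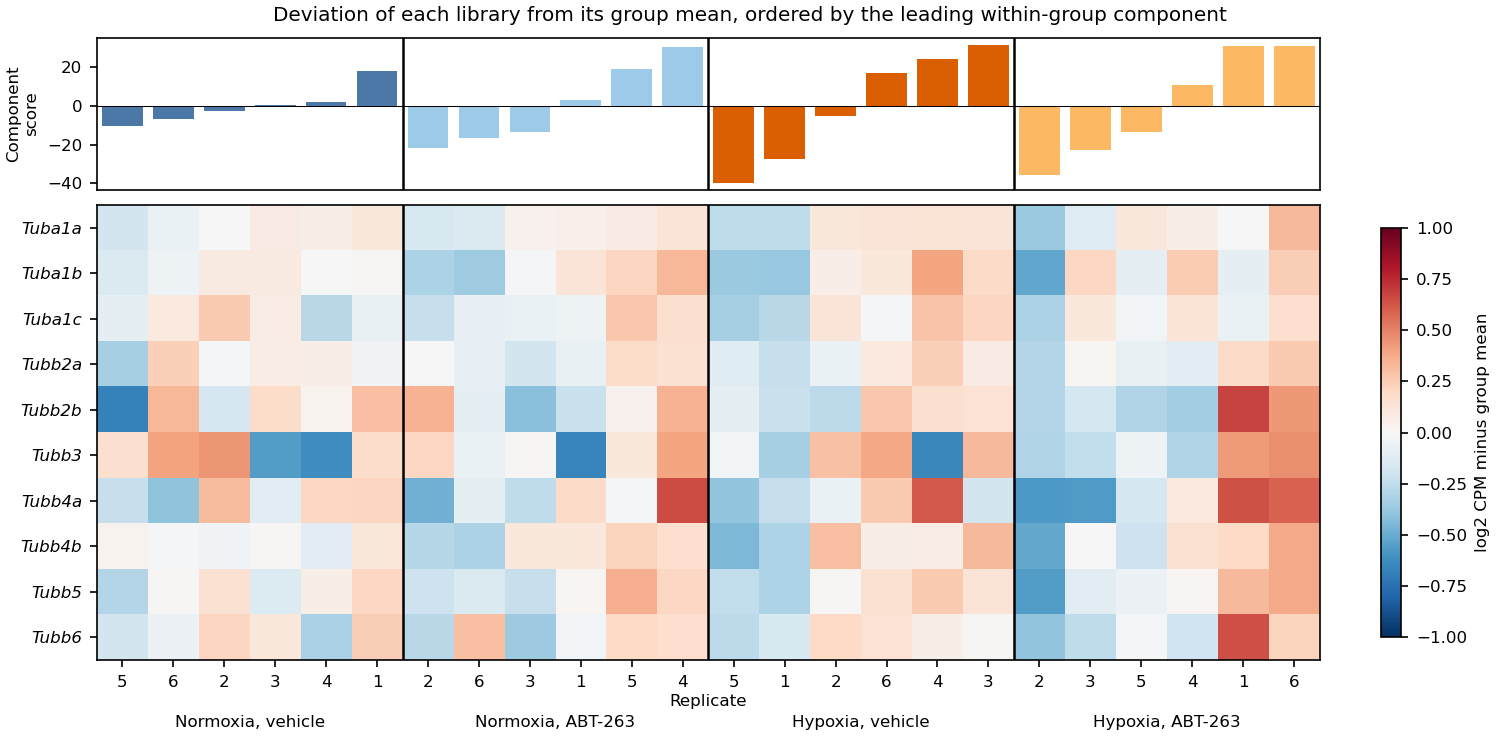
Deviation of each isotype (rows) from its group mean of log2 CPM in each of the 24 libraries (columns, numbered by replicate and ordered within groups by the component score), with the score of the leading within-group component above in arbitrary units. Replicates 1 and 5 of hypoxia with vehicle and replicate 2 of hypoxia with ABT-263 are below the mean (blue) for all 10 isotypes, while replicate 6 of hypoxia with ABT-263 is above it (red) for all 10.

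Under vehicle, hypoxia raised most of the tubulin isotypes in lung. Of the 10 isotypes, 8 were higher at a Benjamini-Hochberg adjusted p under 0.05 in edgeR's quasi-likelihood test, Tubb4a was lower, and Tubb4b did not pass. Of all 16935 genes tested, 18.9% were higher, 16.8% lower and 35.7% called in either direction. The median log2 fold change of the 10 isotypes was 0.90, beside -0.04 for all genes. All 8 that rose had every hypoxia library above every control library, and 17.8% of all genes had groups that did not overlap. Whole lung cannot show whether a level moved because cells of a type became more or fewer or because each held more or less of the RNA.

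All 3 alpha tubulins rose. Tuba1a ran from 284 to 350 CPM (median 329) in the control and from 558 to 730 CPM (median 722) in hypoxia with vehicle. Per kilobase of merged exons it was the most abundant isotype in hypoxia with vehicle, while in the control its range overlapped that of Tubb4b. The hypoxia values split into 4 libraries between 719 and 730 CPM and the pair that was low for all isotypes, at 558 and 559 CPM, still well above the control. Tuba1a rose by 1.05 on the log2 scale (SE 0.10, 2.07-fold; edgeR adjusted p = 4.61e-08).

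Tuba1b ran from 76.2 to 89.6 CPM (median 84.4) in the control and from 99.0 to 169 CPM (median 137) in hypoxia, with replicates 1 and 5 again the lowest of the hypoxia group and no overlap. Its log2 fold change was 0.64 (SE 0.14; edgeR adjusted p = 0.000927). Tuba1c ran from 23.4 to 34.1 CPM (median 28.4) and from 36.4 to 56.0 CPM (median 47.8). The Tuba1c groups came close, at 34.1 and 36.4 CPM, without overlap, and it rose by 0.70 (SE 0.11; edgeR adjusted p = 3.2e-05). The summed counts of all 3, which do not depend on how reads were divided among them, rose by 0.96 (SE 0.11; edgeR adjusted p = 3.13e-07).

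**Figure D2:**
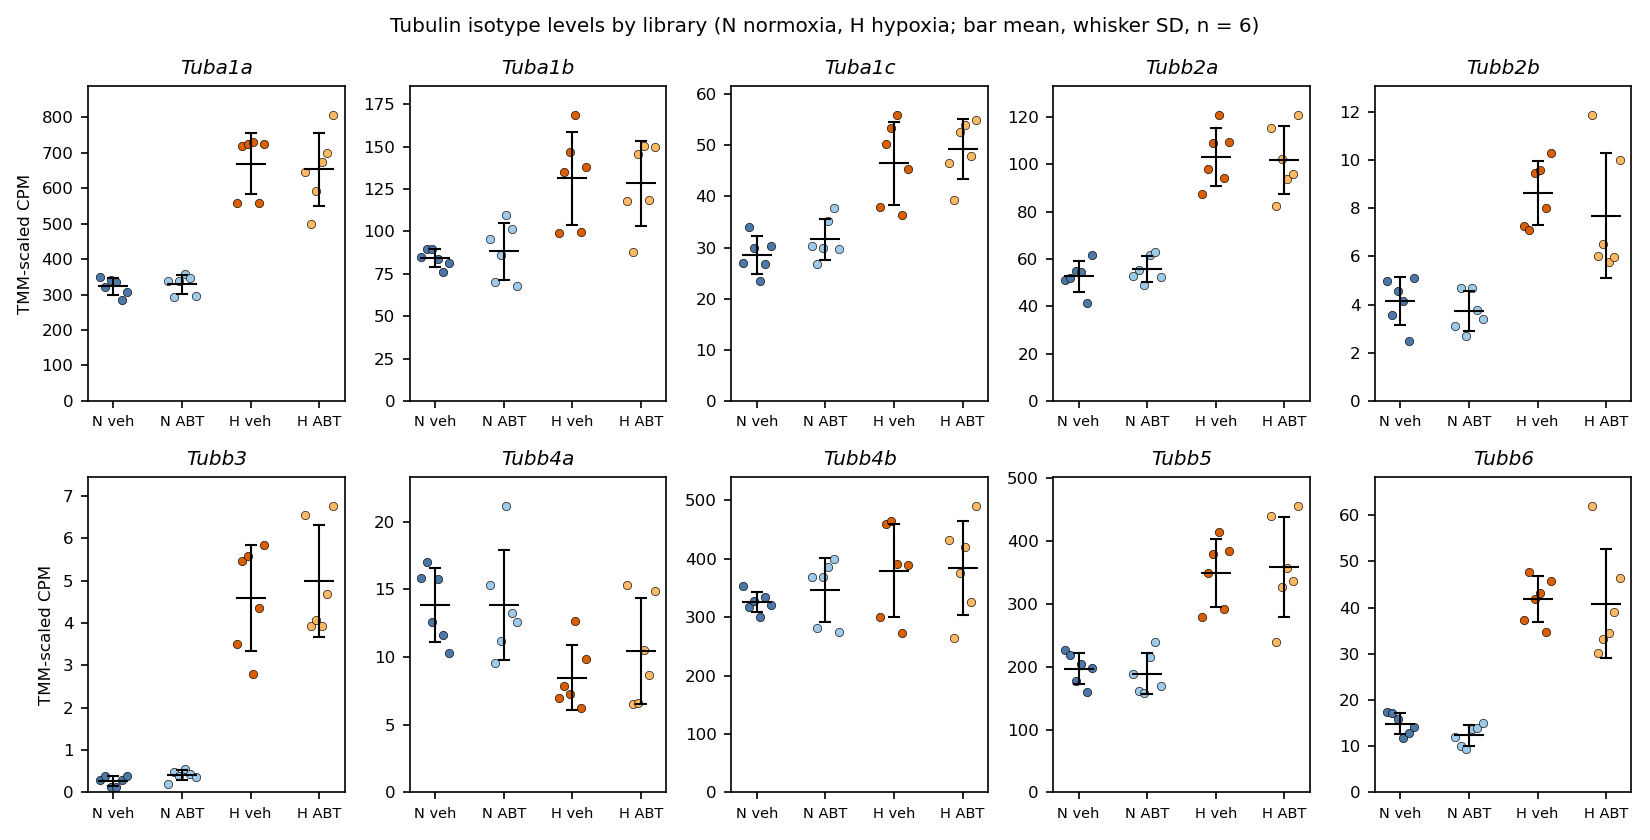
TMM-scaled CPM of each isotype in each library (points) for normoxia (N) and hypoxia (H) with vehicle or ABT-263, with the mean as a bar and the SD as whiskers (n = 6 libraries a group), each panel on its own linear axis from 0. Under vehicle the hypoxia libraries lie above the normoxia libraries in all panels but Tubb4a, where 5 of 6 lie below, and Tubb4b, where they spread to both sides. Under ABT-263 the groups of Tuba1b and Tubb5 touch.

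Among the beta tubulins, Tubb5, the general isotype of dividing and resting cells, ran from 159 to 226 CPM (median 201) in the control and from 280 to 414 CPM (median 364) in hypoxia with vehicle. No library overlapped, and it rose by 0.83 (SE 0.14, 1.77-fold; edgeR adjusted p = 5.49e-05). Tubb4b, the other abundant beta isotype, ran from 301 to 353 CPM (median 325) in the control and from 272 to 465 CPM (median 390) in hypoxia. The hypoxia values lay on both sides of the control: 4 libraries were above all control libraries, and replicates 1 and 5, at 300 and 272 CPM, were below all of them. Its log2 fold change of 0.22 (SE 0.14, 95% interval -0.07 to 0.51) did not pass (edgeR adjusted p = 0.225). On the linear scale the interval ran from 0.955-fold to 1.42-fold.

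The beta isotypes named above as abundant in neurons, Tubb2a, Tubb2b and Tubb3, all rose, while the brain isotype Tubb4a fell. Tubb2a ran from 41.5 to 61.7 CPM (median 53.3) in the control and from 87.4 to 121 CPM (median 103) in hypoxia with vehicle. Tubb2b, its near copy, was scarcer, at 2.47 to 5.11 CPM (median 4.36) and 7.10 to 10.3 CPM (median 8.73). Both had clear gaps between the groups. The log2 fold changes were 0.97 for Tubb2a (SE 0.10; edgeR adjusted p = 8.86e-08) and 1.05 for Tubb2b (SE 0.20; edgeR adjusted p = 0.000165). Summed, the pair rose by 0.98 (SE 0.11; edgeR adjusted p = 1.46e-07).

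Tubb3, whose protein is the usual beta tubulin marker of neurons, was close to undetected in normoxia and clearly present in hypoxia. Its control libraries held 2 to 7 counts each (26 in all), or 0.118 to 0.392 CPM (median 0.302). The hypoxia libraries with vehicle held 39 to 84 counts each (411 in all), or 2.79 to 5.84 CPM (median 4.91). Every hypoxia library lay far above every control library, and replicate 4, not the low pair, was the lowest of them. Tubb3 rose by 4.04 on the log2 scale (SE 0.28, 16.5-fold with a 95% interval of 11.1 to 24.5; edgeR adjusted p = 7.03e-11). Counting error is large at the control level, so the size of the fold is less certain than its direction. 

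Markers of neurons and neuroendocrine cells were measured beside Tubb3. Only 4 of the 13 listed genes passed the filter on low counts, and 2 of these rose, beside 18.9% of all genes. Uchl1, a ubiquitin hydrolase of neurons, rose by 1.01 (SE 0.13) and Gap43, a growth-cone protein, by 0.94 (SE 0.22; edgeR adjusted p = 0.00205). The sum of the list ran from 28.5 to 38.6 CPM in the control and from 40.8 to 84.7 CPM in hypoxia with vehicle. Th, the rate-limiting enzyme of catecholamine synthesis, was at 0 in both groups, and neurofilament genes Nefl and Nefm averaged at most 0.0119 CPM. Of the Schwann cell list, S100b rose by 0.86 (SE 0.20; edgeR adjusted p = 0.00186). The part of such cells in the Tubb3 change was not tested.

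Tubb6 had the next largest change. It ran from 11.7 to 17.5 CPM (median 15.0) in the control and from 34.7 to 47.8 CPM (median 42.6) in hypoxia with vehicle, so the groups were separated by a wide gap. The isotype rose by 1.49 (SE 0.15, 2.80-fold; edgeR adjusted p = 7.53e-08). Tubb4a moved the other way, from 10.3 to 17.0 CPM (median 14.2) in the control to 6.24 to 12.6 CPM (median 7.55) in hypoxia. Of its hypoxia libraries, 5 lay below all control libraries and replicate 4 lay within their range. Tubb4a fell by 0.71 (SE 0.22; edgeR adjusted p = 0.0143), and this call was lost without the low-count filter (adjusted p = 0.05002) and without the 3 libraries farthest on the within-group component (log2 fold change -0.57, adjusted p = 0.0715).

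Ciliated cells build their axonemes from tubulin, and their markers were measured beside Tubb4a and Tubb4b. Of 14 measured ciliated cell markers, 13 fell in hypoxia under vehicle and none rose, beside 16.8% of all genes lower and 18.9% higher. Among those that fell were the axonemal genes Hydin (log2 fold change -1.06, SE 0.15), Dnah5 (-0.85, SE 0.13) and Tekt2 (-0.72, SE 0.11). The remaining marker, the transcription factor Foxj1, had -0.34 (SE 0.14; edgeR adjusted p = 0.0652). Their summed level ran from 1058 to 1272 CPM in the control and from 705 to 1022 CPM in hypoxia with vehicle, with no marker at 0. Replicates 1 and 5, the lowest for Tubb4b, also had the lowest ciliated sums, at 705 and 746 CPM. The part of ciliated cells in the Tubb4a and Tubb4b values was not tested.

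Dividing cells also need tubulin, for the spindle, and their markers moved with the isotypes that rose. Of 20 proliferation markers, 19 rose and none fell, beside 18.9% of all genes higher and 16.8% lower. The median log2 fold change of the 20 was 1.45. The mitotic kinase Cdk1 rose by 2.04 (SE 0.24), the spindle protein Nusap1 by 1.69 (SE 0.19) and the kinase Pbk by 2.41 (SE 0.27). The list summed to 58.4 to 108 CPM in the control and to 170 to 249 CPM in hypoxia. Within hypoxia with vehicle, replicates 1 and 5, with tubulin sums of 1417 and 1405 CPM, had proliferation sums of 189 and 219 CPM. Replicates 2, 4 and 6, with tubulin sums of 1878, 1950 and 1863 CPM, had 249, 244 and 225 CPM, and replicate 3, with 1944 CPM, had the lowest proliferation sum, 170 CPM. The part of dividing cells in the tubulin changes was not tested.

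The make-up of the tubulin pool shifted along with its size. Summed over the 10 isotypes, transcripts ran from 949 to 1130 CPM (median 1044) in the control and from 1405 to 1950 CPM (median 1870) in hypoxia with vehicle, without overlap. Levels of different genes were compared only as CPM per kilobase of merged exons. On that scale the alpha isotypes together averaged 237 ± 15.7 in the control and 462 ± 64.8 in hypoxia with vehicle, and the beta isotypes 262 ± 13.6 and 378 ± 59.4 (SD, n = 6 each). The alpha share of the pool went from 46.1% to 49.2% over the control libraries to 53.9% to 55.9% over the hypoxia libraries. Those ranges do not overlap. The shares are descriptions and were not tested.

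By mean level per kilobase of merged exons the first 6 isotypes kept their order in hypoxia with vehicle. Tubb4a and Tubb6, not told apart in the control, were clearly apart there. In the control Tuba1a came first at 179 ± 13.5 CPM per kb and Tubb4b second at 156 ± 8.35 (SD, n = 6), and their ranges over libraries overlapped. Below them came Tubb5 at 59.2 ± 7.50, Tuba1b at 44.9 ± 2.74, Tubb2a at 32.7 ± 4.11 and Tuba1c at 12.5 ± 1.61 CPM per kb, with no overlap between neighbours in the order. Tubb4a and Tubb6, at 6.21 ± 1.22 and 6.12 ± 0.962, could not be ordered, and Tubb2b at 1.81 ± 0.434 and Tubb3 at 0.145 ± 0.0640 came last.

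In hypoxia with vehicle Tuba1a, at 371 ± 47.8 CPM per kb, stood clear of Tubb4b, at 182 ± 38.1 (SD, n = 6). Tubb5 at 105 ± 16.2 overlapped with Tuba1b at 69.9 ± 14.6, and Tuba1b with Tubb2a at 64.1 ± 7.59. Tuba1c at 20.3 ± 3.55 overlapped with Tubb6 at 17.2 ± 2.04, which now lay clear above Tubb4a. The last 3, Tubb4a at 3.80 ± 1.07, Tubb2b at 3.75 ± 0.580 and Tubb3 at 2.46 ± 0.668, overlapped with their neighbours in the order.

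As shares of the pool, Tuba1a went from 35.9% ± 1.32 to 44.4% ± 1.09 and Tubb4b from 31.3% ± 2.06 to 21.5% ± 2.03 (SD, n = 6 each). Tubb5 held 11.8% ± 1.08 and 12.5% ± 0.629, a shift within its spread. Tubb6 went from 1.22% ± 0.150 to 2.06% ± 0.155 and Tubb4a from 1.24% ± 0.215 to 0.451% ± 0.0918. Tubb3 remained the smallest part, at 0.0291% ± 0.0130 and 0.295% ± 0.0714. The share of Tubb4b was lower although its own level in CPM was not called as changed.

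**Figure D3:**
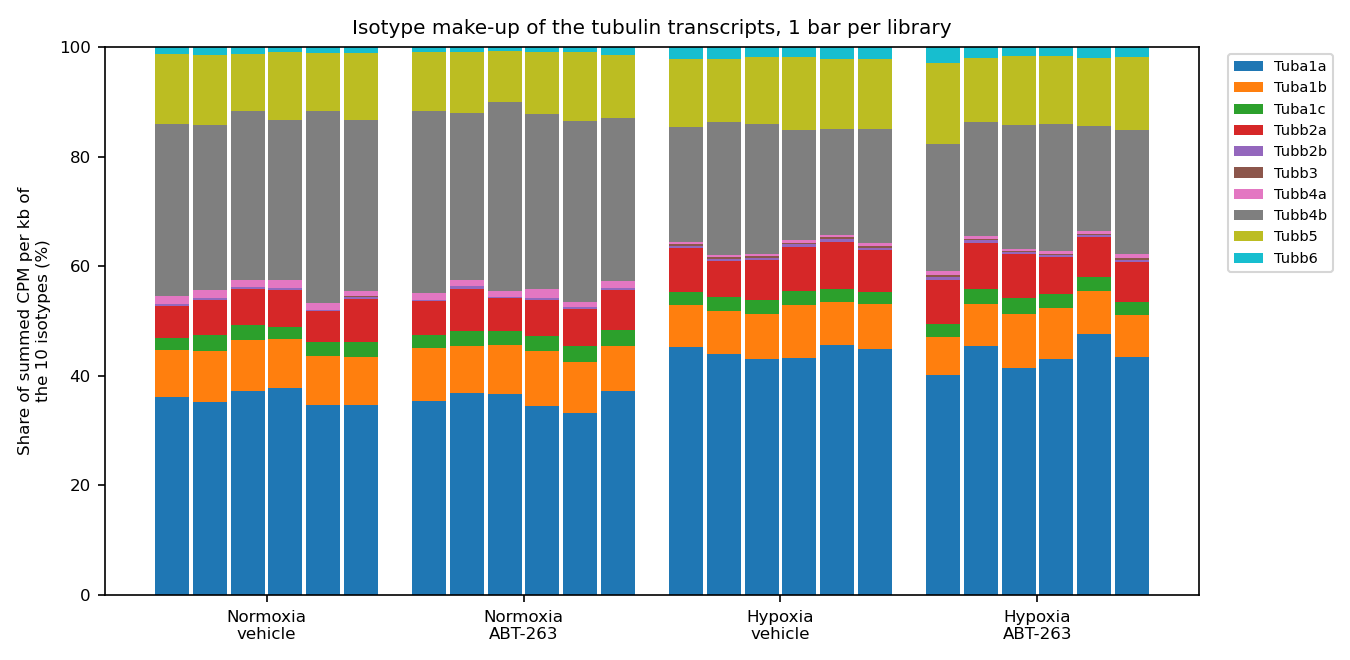
Share of each isotype in the summed CPM per kb of the 10 isotypes, in percent, with 1 stacked bar per library in the 4 groups of 6. Tuba1a takes 34.6% to 37.7% of the pool in the control libraries and 43.0% to 45.7% in hypoxia with vehicle, and Tubb4b takes 29.1% to 35.1% and 19.2% to 24.2%.

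With ABT-263 on board, hypoxia changed the isotypes in the same directions. In edgeR's test 8 of 10 were higher and 0 lower, beside 21.6% of all genes higher, 19.4% lower and 41% in either direction. The 8 were those that rose under vehicle, and their groups did not overlap for 6 of them, beside 14.6% of all genes. The median log2 fold change of the 10 was 0.90, against -0.02 for all genes.

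Tubb3 held 3 to 8 counts per library in normoxia with ABT-263 (36 in all, median 0.414 CPM) and 50 to 112 in hypoxia with ABT-263 (439 in all, median 4.39 CPM). It rose by 3.61 (SE 0.27, 12.2-fold; edgeR adjusted p = 3e-10). Tubb6 ran from 9.43 to 15.1 CPM (median 12.9) and from 30.1 to 62.0 CPM (median 36.8), and rose by 1.73 (SE 0.16; edgeR adjusted p = 1.1e-08). Both had wide gaps between the groups, with replicate 1 the highest of the hypoxia group for Tubb6.

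Tuba1a ran from 293 to 359 CPM (median 339) in normoxia with ABT-263 and from 500 to 808 CPM (median 660) in hypoxia with ABT-263, and rose by 0.99 (SE 0.10; edgeR adjusted p = 1.1e-07). Tuba1b ran from 67.9 to 109 CPM (median 90.7) and from 87.7 to 150 CPM (median 132), and rose by 0.54 (SE 0.14; edgeR adjusted p = 0.00372). Tuba1c ran from 26.8 to 37.8 CPM (median 30.1) and from 39.3 to 54.9 CPM (median 50.3), a rise of 0.64 (SE 0.11; edgeR adjusted p = 9.75e-05). Only Tuba1b overlapped among the alpha genes, through replicate 2 of hypoxia with ABT-263, the library low for all isotypes.

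Tubb2a ran from 48.9 to 63.1 CPM (median 54.0) in normoxia with ABT-263 and from 82.3 to 121 CPM (median 99.1) in hypoxia with ABT-263, and rose by 0.87 (SE 0.10; edgeR adjusted p = 4.65e-07). Tubb2b ran from 2.70 to 4.69 CPM (median 3.58) and from 5.77 to 11.9 CPM (median 6.26), and rose by 1.05 (SE 0.20; edgeR adjusted p = 0.0002). Tubb5 ran from 159 to 240 CPM (median 179) and from 239 to 456 CPM (median 347), and rose by 0.93 (SE 0.14; edgeR adjusted p = 1.46e-05). For Tubb5 the groups met at 240 and 239 CPM, again through replicate 2, while the Tubb2a and Tubb2b groups stayed apart.

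The remaining pair did not pass. Tubb4b ran from 274 to 400 CPM (median 368) in normoxia with ABT-263 and from 264 to 490 CPM (median 398) in hypoxia with ABT-263 (log2 fold change 0.15, SE 0.14, 95% interval -0.14 to 0.44; edgeR adjusted p = 0.398). Tubb4a ran from 9.58 to 21.1 CPM (median 13.0) and from 6.56 to 15.3 CPM (median 9.61; log2 fold change -0.40, SE 0.22, 95% interval -0.86 to 0.05; edgeR adjusted p = 0.145). Their groups overlapped in part. For Tubb4b 3 of 6 hypoxia libraries lay above all normoxia libraries and 1 below, and for Tubb4a 3 lay below and 0 above. Of 14 ciliated cell markers, 11 fell with hypoxia under ABT-263 and 0 rose, beside 19.4% of all genes lower and 21.6% higher.

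The pool had a similar make-up under the drug. The alpha share of the summed CPM per kb was 47.5% ± 1.09 in normoxia with ABT-263 and 54.3% ± 2.86 in hypoxia with ABT-263 (SD, n = 6 each). Tuba1a held 35.7% ± 1.56 and 43.5% ± 2.72 of it, and Tubb4b 32.2% ± 1.77 and 21.9% ± 1.64. Hypoxia libraries with the drug spread more widely in the alpha share, from 49.5% to 58.0%, than those with vehicle.

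ABT-263 itself changed no tubulin isotype in these tests. In normoxia 0 of 10 passed in edgeR's test (lowest adjusted p 0.792), where 0.0413% of all genes did (7 genes). In hypoxia 0 of 10 passed (lowest adjusted p 0.9999), where 0% of all genes did. Averaged over oxygen, 0 of 10 passed (lowest adjusted p 0.97), where 0.165% of all genes did (28 genes). At an unadjusted p under 0.05 there were also 0 of 10 isotypes in each of these comparisons, and 0 by DESeq2 and by limma-voom. Over all genes an unadjusted p under 0.05 was reached by 1154 in normoxia and 543 in hypoxia. The drug groups overlapped with their vehicle groups for all isotypes, beside 0.49% of all genes not overlapping in normoxia and 0.159% in hypoxia.

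The intervals say how large a drug effect could have gone unseen. Leaving out Tubb3, the 95% intervals of the isotypes lay within log2 fold changes of -0.59 to 0.44 in normoxia and -0.55 to 0.77 in hypoxia. The widest was that of Tubb3 in normoxia, where its log2 fold change was 0.56 with an interval of -0.18 to 1.30 on 26 and 36 counts. Tubb6 had the lowest unadjusted p in normoxia, 0.094, at a log2 fold change of -0.27 (95% interval -0.59 to 0.05).

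The response to hypoxia was not shown to differ with the drug. In the interaction of hypoxia and ABT-263, 0 of 10 isotypes passed in edgeR's test (lowest adjusted p 0.991), as did 0% of all genes, with 625 genes at an unadjusted p under 0.05 and 0 genes called by DESeq2 or limma-voom. The difference of the log2 fold changes was -0.44 for Tubb3 (95% interval -1.28 to 0.41) and 0.31 for Tubb4a (-0.33 to 0.95). Tubb4a was thus called under vehicle and not under ABT-263 without a detected difference between the responses.

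Tubb1, the beta tubulin of platelets and megakaryocytes, is not among the 10 but was followed because ABT-263 is known to lower platelet numbers through BCL-XL. It ran from 4.85 to 12.03 CPM (median 8.12) in the control and from 8.29 to 23.4 CPM (median 13.3) in normoxia with ABT-263. The groups overlapped, and its log2 fold change of 0.72 (SE 0.33, 95% interval 0.05 to 1.40) did not pass (edgeR adjusted p = 0.698). In hypoxia it was 0.30 (SE 0.33), and averaged over oxygen 0.51 (SE 0.23; edgeR adjusted p = 0.814). Of 11 other platelet and megakaryocyte genes, 2 rose with ABT-263 in normoxia, Gp1bb by 1.87 (edgeR adjusted p = 0.011) and Gp9 by 1.25 (edgeR adjusted p = 0.0128), and 4 rose averaged over oxygen. The calls in normoxia depend on the fit: edgeR called 7 of all genes, 0 with only the groups compared and 1 without replicate 4 of either group. Their summed level ran from 106 to 139 CPM in the control and from 156 to 259 CPM in normoxia with ABT-263.

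Of 10 further tubulin genes listed, 7 could be tested. In hypoxia under vehicle 0 rose and 1 fell in edgeR's test, beside 18.9% and 16.8% of all genes, with a median log2 fold change of 0.11 beside 0.90 for the 10 isotypes, a difference that was not tested. Tuba4a, an alpha tubulin whose coding sequence lacks the C-terminal tyrosine, had -0.18 (SE 0.13; edgeR adjusted p = 0.296), and Tubd1, the delta tubulin of centrioles, 0.11 (SE 0.12; edgeR adjusted p = 0.481). Tubg1, the gamma tubulin that nucleates microtubules, had 0.26 (SE 0.11; edgeR adjusted p = 0.0695) under vehicle and rose by 0.40 (SE 0.11) under ABT-263 (edgeR adjusted p = 0.00632), the 1 call of the list there. Tubg2 fell by 0.78 (SE 0.27; edgeR adjusted p = 0.0249) from a low level of 1.60 ± 0.534 CPM (SD, n = 6).

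Among the 14 genes of the CCT chaperonin and prefoldin, 7 rose and 0 fell in hypoxia under vehicle, beside 18.9% and 16.8% of all genes, with a median log2 fold change of 0.27. The prefoldin subunits Vbp1 (0.61, SE 0.09), Pfdn1 (0.57, SE 0.09) and Pfdn4 (0.47, SE 0.10) and the chaperonin subunit Cct6a (0.50, SE 0.08) had the smallest p. Of 7 folding cofactor genes, 2 rose and 1 fell, beside 35.7% of all genes called in either direction. Those were Tbca, which holds beta tubulin (0.55, SE 0.09), Tbcb, which holds alpha tubulin (0.53, SE 0.10), and Tbcel, which destabilises tubulin (-0.29, SE 0.09; edgeR adjusted p = 0.0129).

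Genes of tubulin mRNA autoregulation did not pass in hypoxia under vehicle. All 4 had small log2 fold changes: Ttc5, the reader of the nascent chain, -0.07 (SE 0.08), its partner Scaper -0.13 (SE 0.08), and the CCR4-NOT subunits Cnot1 0.04 (SE 0.06) and Cnot11 0.02 (SE 0.08). By edgeR's test 0 of 4 passed (lowest adjusted p 0.238). Their summed level ran from 160 to 173 CPM in the control and from 161 to 171 CPM in hypoxia with vehicle, so the groups overlapped almost wholly.

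Enzymes that modify tubulin after synthesis went both ways, with 5 of 24 higher and 8 lower, beside 18.9% and 16.8% of all genes. Vash1, a carboxypeptidase that removes the last tyrosine of alpha tubulin, rose by 1.12 (SE 0.20; edgeR adjusted p = 8.6e-05), and Ttl, the ligase that puts it back, by 0.46 (SE 0.09; edgeR adjusted p = 0.000255). The polyglutamylase Ttll7 rose by 0.45 (SE 0.07; edgeR adjusted p = 1.24e-05), and the deglutamylase Agbl2 fell by 0.62 (SE 0.12; edgeR adjusted p = 0.000374). The members that fell include genes used in cilia, such as Ttll6 and Ttll9, beside the fall of ciliated cell markers given above, whose part in it was not tested.

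Of 17 genes of the gamma-tubulin ring and the augmin complex, which start new microtubules, 6 rose and 0 fell, beside the same shares of all genes. The ring protein Mzt1 rose by 0.77 (SE 0.12), the augmin subunits Haus2 and Haus6 by 0.57 (SE 0.08) and 0.44 (SE 0.11), and the ring adaptor Nedd1 by 0.25 (SE 0.07). Proteins that bind microtubules or set their dynamics were mixed, with 5 of 28 higher and 7 lower and a median of 0.03, beside 18.9% higher and 16.8% lower of all genes. Dclk1, a doublecortin-family kinase, rose by 0.99 (SE 0.15) and the plus-end protein Mapre1 by 0.57 (SE 0.10), while its paralog Mapre3 (-0.52, SE 0.10) and the polymerisation promoter Tppp (-0.74, SE 0.12) fell.

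**Figure D4:**
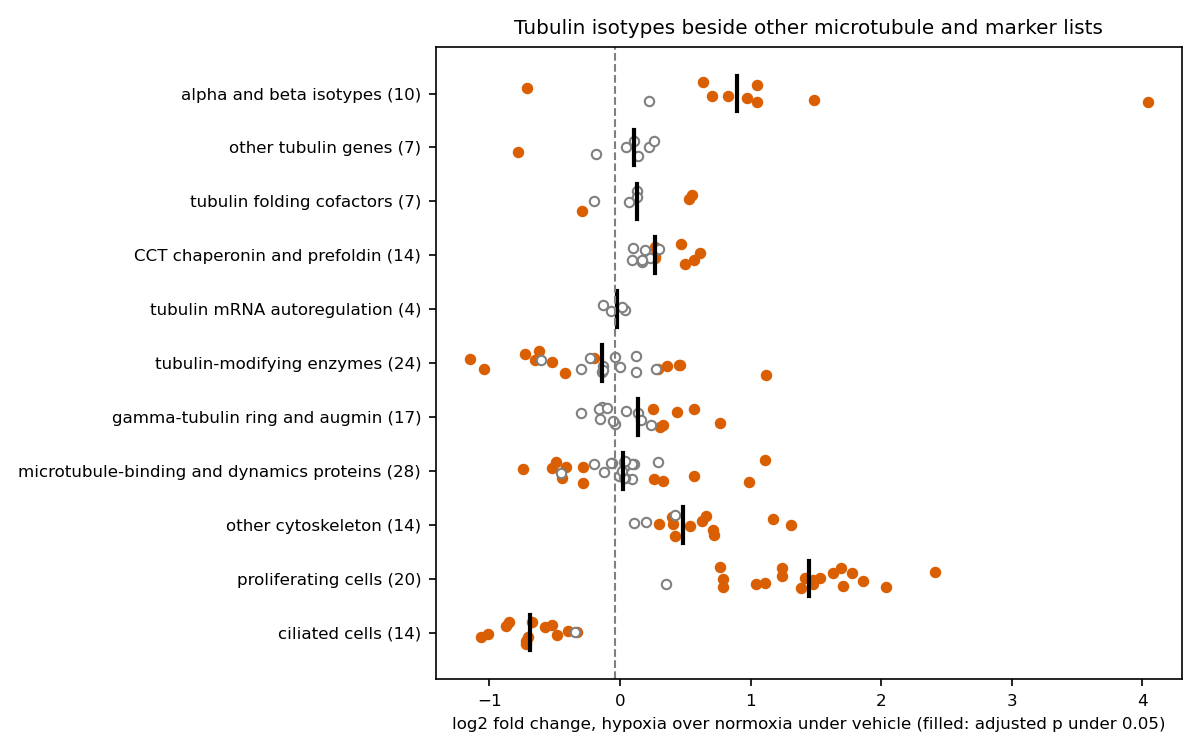
Log2 fold change of single genes in hypoxia over normoxia under vehicle for the 10 isotypes, the other tubulin and microtubule lists, other cytoskeletal genes and the markers of proliferating and ciliated cells, with the number of tested genes in parentheses, filled where the edgeR adjusted p was under 0.05. Black bars are list medians and the dashed line is the median of all genes at -0.04: the isotypes have a median of 0.90, proliferation markers 1.45 and ciliated markers -0.68.

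For each isotype called under vehicle, the 3 genes with the most similar pattern over the 24 libraries were taken by the root mean square difference of mean-centred log2 CPM, among 13904 genes. Tuba1a was closest to Arf2 (0.112), the glycolytic enzyme gene Ldha (0.12) and the tropomyosin gene Tpm4 (0.142). Ldha was also near Tubb2a (0.153), after Lxn (0.147) and before Acot9 (0.154). Tuba1b and Tuba1c shared Nhp2 (0.118 and 0.129), with Bsg (0.124) and Anxa2 (0.129) for Tuba1b and Manf (0.117) and Cd63 (0.125) for Tuba1c.

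Tubb5 was closest to Rhoa (0.131), Poc1a (0.134) and Emp3 (0.135), and Tubb6 to the lysyl oxidase gene Loxl2 (0.199), Tmem37 (0.239) and Diaph3 (0.251). The nearest genes to Tubb2b were Col4a1 (0.226), Mgll (0.232) and Calu (0.254), and those to Tubb4a were Pltp (0.212), Prelp (0.229) and Gsn (0.237). For Tubb3 the nearest were Ntrk2 (0.45), Timp1 (0.5) and Col8a1 (0.545). Its distances were larger than those of the other isotypes, but so was its own pattern. The root mean square of that pattern was 1.75, beside 0.37 (Tuba1b) to 0.84 (Tubb6) for the others. These distances describe the libraries and rest largely on the shared difference between oxygen levels.

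Promoter windows, from RefSeq on GRCm38.p6, were used for 8 of the 10 isotypes. The 250 bases before the start were searched for the hypoxia response core ACGTG or GCGTG on both strands, overlaps allowed. The windows of Tuba1a, Tuba1b, Tubb3, Tubb4a and Tubb5 reach into the gene spans given above, so not all their bases lie before those spans. The core occurred in 4 of 8, Tuba1b, Tubb4a, Tubb4b and Tubb5, and in 38.6% of all 32851 windows of that length. The windows of Tuba1a, Tuba1c, Tubb2a and Tubb3, all of which rose, held no match, and those of Tubb4a, which fell, and Tubb4b, with no call, held some. Tubb5 had the most, 3, a pair of them overlapping, and its window is shown with the matches in capitals (chr17:35838302-35838551, minus strand, 5′ to 3′ towards the gene).
Tubb5: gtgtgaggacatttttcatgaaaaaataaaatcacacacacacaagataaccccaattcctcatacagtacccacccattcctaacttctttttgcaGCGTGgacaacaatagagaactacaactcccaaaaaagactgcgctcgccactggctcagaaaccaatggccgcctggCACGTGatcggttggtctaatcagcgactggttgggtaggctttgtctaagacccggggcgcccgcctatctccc
The matches begin 153, 75 and 74 bases before the start. A match describes these letters and is no evidence of a bound factor.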

How the data were processed

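The authors deposited 1 table of expected counts per gene over the 24 libraries, as RSEM estimates them. The submitters' processing notes name RSEM, STAR, Trimmomatic and the GRCm38 build. No version, annotation release or strand setting is stated in them. Of the values, 91.8% were whole. At Tubb4b all 24 libraries held fractions, at Tubb5 2, and at the other isotypes 0, so how reads of the near-identical stretches were assigned is not known.

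From these, rounded counts were fitted in R 4.3.3 by edgeR 4.0.16 (filterByExpr with a minimum count of 10, TMM, robust quasi-likelihood fit with 1 mean per group, 20 residual degrees of freedom). P-values were adjusted by Benjamini-Hochberg over all 16935 genes, at a threshold of 0.05, in 6 comparisons. Alternatives were RLE scaling, no filter, DESeq2 1.42.0, limma-voom (limma 3.58.1), only the groups compared, summed near-identical isotypes, pseudogene reads added to their parents, and each library left out. Adjusting for the leading within-group component, and leaving out its 3 farthest libraries, were chosen after seeing the data. The fit was tested on simulated data.

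Of the table's identifiers, 99.8% matched GENCODE vM21, which gave lengths and positions. All table columns matched a library. The labels carry no batch or pairing. The isotypes and gene lists were chosen with earlier results of these data known. Genes named are the 10 isotypes, the genes of each list with the smallest unadjusted p in hypoxia under vehicle, up to 4 for microtubule lists and 3 for cell type lists, the 3 nearest genes per called isotype, and Tubb1. Other genes named as examples (Foxj1, Ttll6, Ttll9, Th, Nefl, Nefm, Sftpc, Pdgfrb, Myh11, Cnn1, Notch3, and Gp1bb and Gp9 under ABT-263) were chosen after their values were seen. A few genes that this rule picks are not reported here.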

Additional observations from a re-analysis of the deposited data

How the results depend on the processing

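Over all alternatives, no isotype changed direction where it was called, and leaving out any of the 24 libraries left 9 isotypes called for hypoxia under vehicle, 8 under ABT-263 and 0 in the other 4 comparisons, with no single isotype gaining or losing its call. Tubb4a under vehicle lost its call without the low-count filter (log2 fold change -0.69, edgeR adjusted p = 0.05002) and without the 3 libraries farthest on the within-group component (-0.57, adjusted p = 0.0715). Its leave-one-out adjusted p reached at most 0.0366. Adjusting for that component brought Tubb4b under vehicle (0.20, adjusted p = 0.0482) and Tubb4a under ABT-263 (-0.44, adjusted p = 0.00674) past the threshold. For these 4 the cause was not tested. Without the 3 libraries, the log2 fold changes of the 8 isotypes that rose under vehicle lay between 0.68 (Tuba1b) and 3.98 (Tubb3).

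Shares depend on the length used. With CPM not divided by length, Tuba1a took 30.9% in the control and 38.5% in hypoxia with vehicle, and Tubb5 18.8% and 20.1%. With the longest transcript as length, Tuba1a took 31.5% and 39.7%, Tubb4b 35.8% and 25.2%, and Tubb5 13.0% and 14.1%, so that Tubb4b and not Tuba1a came first in the control. Each setting only changes the divisor.

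Counts of called genes over the whole table moved more under the drug. In normoxia ABT-263 called 7 genes in the main analysis, 33 with DESeq2, 0 with only the groups compared, 81 with the component as covariate, 3 without the 3 libraries and 1 (without replicate 4 of either group) to 13 (without ABT-263 replicate 2) over the leave-one-out runs, with 2 to 4 without replicates 1, 2 or 3 of vehicle, 1 or 3 of ABT-263, or hypoxia vehicle replicate 3. In hypoxia it called 0, against 6 with DESeq2 and 0 to 1 (without hypoxia vehicle replicate 6) over those runs. Averaged over oxygen it called 28, against 95 with DESeq2, 96 with the covariate, 4 without the 3 libraries and 13 (without normoxia vehicle replicate 1) to 40 over those runs, with 17 or 18 without normoxia vehicle replicate 2, normoxia or hypoxia ABT-263 replicate 3, or hypoxia vehicle replicates 3 or 4.

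No paired analysis was possible because the labels carry no replicate numbers, and the numbers used here only name libraries. Depth limits Tubb3 most, at 2 to 8 counts per normoxia library.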

Other observations

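Other cytoskeletal genes rose alongside the tubulins. Of 14 genes of actin, tropomyosin, lamin and filament proteins, 11 were higher in hypoxia under vehicle and 0 lower in edgeR's test, with a median log2 fold change of 0.48 beside 0.90 for the 10 tubulin isotypes and -0.04 for all genes. The tropomyosins Tpm2 and Tpm4 rose by 1.31 (SE 0.10) and 1.17 (SE 0.09), the actin crosslinker Flna by 0.71 (SE 0.09) and the nuclear lamin gene Lmna by 0.66 (SE 0.10). Under ABT-263, 12 of 14 were higher and 0 lower. Of all genes, 18.9% were higher and 16.8% lower under vehicle, and 21.6% and 19.4% under ABT-263.

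Markers of contractile and matrix cells moved in the same libraries. The counts below stand beside 18.9% of all genes higher and 16.8% lower under vehicle. Of 8 smooth muscle and pericyte markers, 4 rose and 1 fell under vehicle. The actin-binding Tagln was higher by 2.04 (SE 0.10), the proteoglycan Cspg4 by 1.27 (SE 0.09) and the muscle actin Acta2 by 1.45 (SE 0.18). Pdgfrb fell by 0.28 (SE 0.10), while Myh11 (-0.12), Cnn1 (0.13) and Notch3 (-0.11) did not pass. The sum of the 8 ran from 859 to 1026 CPM in the control and from 1855 to 2492 CPM in hypoxia with vehicle. In that hypoxia group Tagln and Acta2 averaged 1107 and 548.5 CPM of it. Of 6 fibroblast markers, 4 rose and 0 fell, among them Postn by 0.49 (SE 0.13), Col1a1 by 0.55 (SE 0.15) and Col3a1 by 0.53 (SE 0.16). Endothelial markers went down in 5 of 8 cases, with Plvap at -1.72 (SE 0.21), Aplnr at -1.63 (SE 0.17) and Tek at -0.56 (SE 0.11). All 9 tested erythroid genes rose, among them Slc4a1 by 3.32 (SE 0.34) and Trim10 by 3.19 (SE 0.31). The part of these cells in the tubulin values was not tested.

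Other lists moved less, with counts nearer to the shares of all genes under vehicle, 18.9% higher and 16.8% lower. On so few genes they are not read as changes of those cells. Of 8 monocyte and macrophage markers 2 rose and 0 fell, Mrc1 by 0.74 (SE 0.10) and Cd68 by 0.52 (SE 0.16), of 4 neutrophil markers 1 fell, Csf3r (-0.77, SE 0.24), and of 7 epithelial markers 1 rose, Hopx (0.33, SE 0.11), and 1 fell, Abca3 (-0.31, SE 0.12). Of the 11 platelet markers 3 rose with hypoxia under vehicle, Pf4 by 1.05 (SE 0.14), Gp1bb by 2.05 (SE 0.28) and Gp9 by 0.77 (SE 0.21).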
